A study of Mus musculus with 15 samples.

Results

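The proteasome is the barrel-shaped protease that destroys proteins tagged with ubiquitin. Its genes were taken as every probe set whose mouse symbol starts with Psma, Psmb, Psmc, Psmd, Psme, Psmf or Psmg followed by a number, which gave 48 of 25206 probe sets, 1 per gene. By role they comprise 8 alpha subunits of the 20S core, 9 beta subunits of the core, 6 ATPases and 11 other subunits of the 19S cap, 7 assembly chaperones, 4 activators and 1 inhibitor. The remaining 2, Psmc3ip and Psme3ip1, match the symbol rule but encode partner proteins that are not proteasome subunits. Psmb3 and Psmb5 were not analysed here, so 1 of the catalytic pairs of the core is represented only by its immune form.

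The 20S core is a stack of rings in which alpha subunits form the gate and beta subunits form the chamber. Only the beta subunits Psmb5, Psmb6 and Psmb7 cut peptide bonds in the constitutive core. Interferon gamma induces the immune subunits Psmb8, Psmb9 and Psmb10, which take the places of Psmb5, Psmb6 and Psmb7 in newly made cores and change the peptides offered to MHC class I molecules. The 19S cap recognises, unfolds and feeds in ubiquitinated proteins, and the activators Psme1 to Psme4 can dock on the core in its place. Brown adipocytes are known to depend on proteasome activity held up by the transcription factor Nfe2l1.

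RNA of adipocytes sorted by flow cytometry was measured on 15 arrays in 5 groups, all from UCP1/Tomato mice of 8 to 10 weeks on standard chow. The BAT group (3 arrays) held UCP1-positive brown adipocytes of brown fat from untreated mice. Inguinal fat of treated mice gave UCP1-positive cells, from which 3 arrays (CL) followed the beta-adrenergic agonist CL316243, 2 (RS) the cyclin-dependent kinase inhibitor roscovitine, and 3 (RG) the PPARG agonist rosiglitazone. The WAT group (4 arrays) held UCP1-negative white adipocytes of inguinal fat from untreated mice. The gate is labelled UCP1(GFP) although the mice are labelled UCP1/Tomato, so the reporter is unsettled, and strain, sex, dose and duration are not given in the sources used here. The design has no untreated UCP1-positive inguinal cells, so treatment and gate cannot be told apart in CL, RS or RG against WAT, nor depot and gate in BAT against WAT. Since nothing states that arrays came from separate animals, p-values reflect only the spread among these samples, which may be technical.

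Values are log2 expression values, and every difference below is a log2 difference between group means from limma with its standard error. Array medians lay between 3.33 and 3.47, and arrays of 1 group correlated between 0.945 and 0.988 across probe sets. The spread over probe sets was wider on the WAT arrays (SD 1.91 to 2.00) than on all others (1.65 to 1.85). As a check of the sort, all 8 brown or beige markers, Ucp1 among them, were higher in BAT than in WAT, as were 7 of 8 in CL, 6 in RS and 6 in RG. Markers of other cells also differed: all 12 measured macrophage markers were below WAT in each of the UCP1-positive groups, and of 9 stromal markers 9 were lower in BAT, 6 in CL, 8 in RS and 4 in RG. The WAT arrays were not alike in these markers. The mean level of 9 adipocyte markers was 7.77 on WAT 4, against 8.9 to 9.38 on the other WAT arrays. Macrophage markers averaged 8.21 on WAT 4, against 7.11 to 7.52, and stromal markers 9.27, against 7.63 to 8.67. Endothelial markers averaged 4.3 on RS 3 and 6.38 on RS 4. In sorted bulk RNA, fewer cells of a type and less RNA per cell cannot be told apart.

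Psmb8 and Psmb9 lie close together in the MHC region of chromosome 17, where the order of protein-coding genes is H2-DMb1, Psmb9, Tap1, Psmb8, Tap2, and both were lowest in BAT. Because these neighbours had the largest decreases among the proteasome genes, the 250 bases before each start in RefSeq (GRCm38.p6) are given 5′ to 3′. The Psmb8 stretch is chr17:34197945-34198194 on the plus strand, and the Psmb9 stretch is chr17:34187331-34187580 on the minus strand. Capitals mark matches to a gamma-activated site in Psmb8 and to a CCAAT box, read on the other strand, in Psmb9.
Psmb8: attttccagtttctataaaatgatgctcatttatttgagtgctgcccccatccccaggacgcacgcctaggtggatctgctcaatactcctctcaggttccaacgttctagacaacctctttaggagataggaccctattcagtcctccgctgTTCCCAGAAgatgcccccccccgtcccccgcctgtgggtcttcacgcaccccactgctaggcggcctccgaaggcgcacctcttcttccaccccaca
Psmb9: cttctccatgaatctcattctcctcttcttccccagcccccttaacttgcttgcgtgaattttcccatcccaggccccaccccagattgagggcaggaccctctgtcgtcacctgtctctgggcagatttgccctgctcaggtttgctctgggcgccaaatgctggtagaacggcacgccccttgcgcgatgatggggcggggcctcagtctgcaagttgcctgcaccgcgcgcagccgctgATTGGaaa
Both strands of 40 members with a promoter in the table were searched from 250 bases before to 50 bases after the start. The gamma-activated site was searched as TTCNNNGAA and occurred in 3 of 40 (7.5%), against 8.3% of all 32851 promoters. The interferon element, searched as GAAANNGAA, occurred in 6 of 40 (15%), against 8.56% of all, and in none of the 3 immune subunits. The antioxidant core TGACNNNGC, the kind of element that Nfe2l1 binds, occurred in 5 of 40 (12.5%), against 12.4% of all, including TGACGGAGC just before the start of Psmb6. The CCAAT box occurred in 15 of 40 (37.5%), against 37.4% of all. These matches are descriptions of the letters in short windows and not evidence of binding.

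In brown adipocytes the immune catalytic subunits were lower than in white adipocytes, while 1 of the constitutive ones they replace was higher and the other lay near the white level. The BAT against WAT comparison asks how brown and white fat cells differ. Of the 48 proteasome genes, 6 were higher (12.5%), against 27.6% of all probe sets, and 4 were lower (8.33%), against 16.4% of all. All 3 immune catalytic subunits were among the 4 lower genes. The fourth was the assembly chaperone Psmg4. The 6 higher genes were Psmb7, Psmd4, Psme2, Psme4, Psmb11 and Psmc3ip. Most members are bright, with 42 of 48 above the array median on every array. With only the 9690 probe sets averaging above 4, 4 of 43 members were higher and 4 lower. Of all probe sets in that set, 11.6% were higher and 33.8% lower, so the shares above depend on the dim probe sets.

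Psmb8 encodes the immune subunit with chymotrypsin-like activity. It read 4.82, 5.67 and 5.49 on the BAT arrays, 6.29, 5.99 and 6.31 on the CL arrays, 6.43 and 6.46 on the RS arrays, 6.52, 6.57 and 6.57 on the RG arrays, and 6.91, 6.81, 6.61 and 6.82 on the WAT arrays. Every WAT array lay above every other array, and every BAT array below every other, so BAT and WAT did not overlap. Psmb8 was 2.75-fold lower in BAT than in WAT (log2 difference -1.46 ± 0.182, SE, n = 3 and 4, limma adjusted p = 5.85e-05).

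Psmb9, the immune counterpart of Psmb6, read 6.43, 7.05 and 7.07 in BAT, 7.58, 7.54 and 7.33 in CL, 7.42 and 7.45 in RS, 7.71, 7.30 and 7.79 in RG, and 8.04, 7.84, 8.11 and 7.85 in WAT. The groups were again arranged with BAT lowest and WAT highest, without overlap between those and the rest. Psmb9 was 2.16-fold lower in BAT than in WAT (-1.11 ± 0.179, adjusted p = 0.000331). Psmb10, the immune counterpart of Psmb7, read 7.26, 7.49 and 7.45 in BAT, 7.72, 7.76 and 7.50 in CL, 7.48 and 7.69 in RS, 7.76, 7.83 and 7.83 in RG, and 8.04, 8.11, 8.07 and 8.14 in WAT. Here too the 4 WAT arrays were the highest, but BAT and RS overlapped. Psmb10 was 1.61-fold lower in BAT than in WAT (-0.69 ± 0.131, adjusted p = 0.000997).

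Psmb7, the constitutive trypsin-like subunit, went the other way. It read 8.67, 8.78 and 8.49 in BAT, 8.37, 8.24 and 8.51 in CL, 8.20 and 8.28 in RS, 8.44, 8.47 and 8.26 in RG, and 8.13, 7.88, 7.86 and 7.76 in WAT. All WAT arrays lay below all other arrays. Psmb7 was 1.67-fold higher in BAT than in WAT (0.74 ± 0.143, adjusted p = 0.0011). Psmb6, the constitutive caspase-like subunit, read 8.67, 8.69 and 8.20 in BAT, 8.49, 8.60 and 8.73 in CL, 8.20 and 8.32 in RS, 8.74, 8.46 and 8.46 in RG, and 8.48, 8.32, 8.61 and 8.53 in WAT. Its groups overlapped, with a BAT minus WAT difference of 0.03 ± 0.156 that did not pass the test (adjusted p = 0.869).

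**Figure D1:**
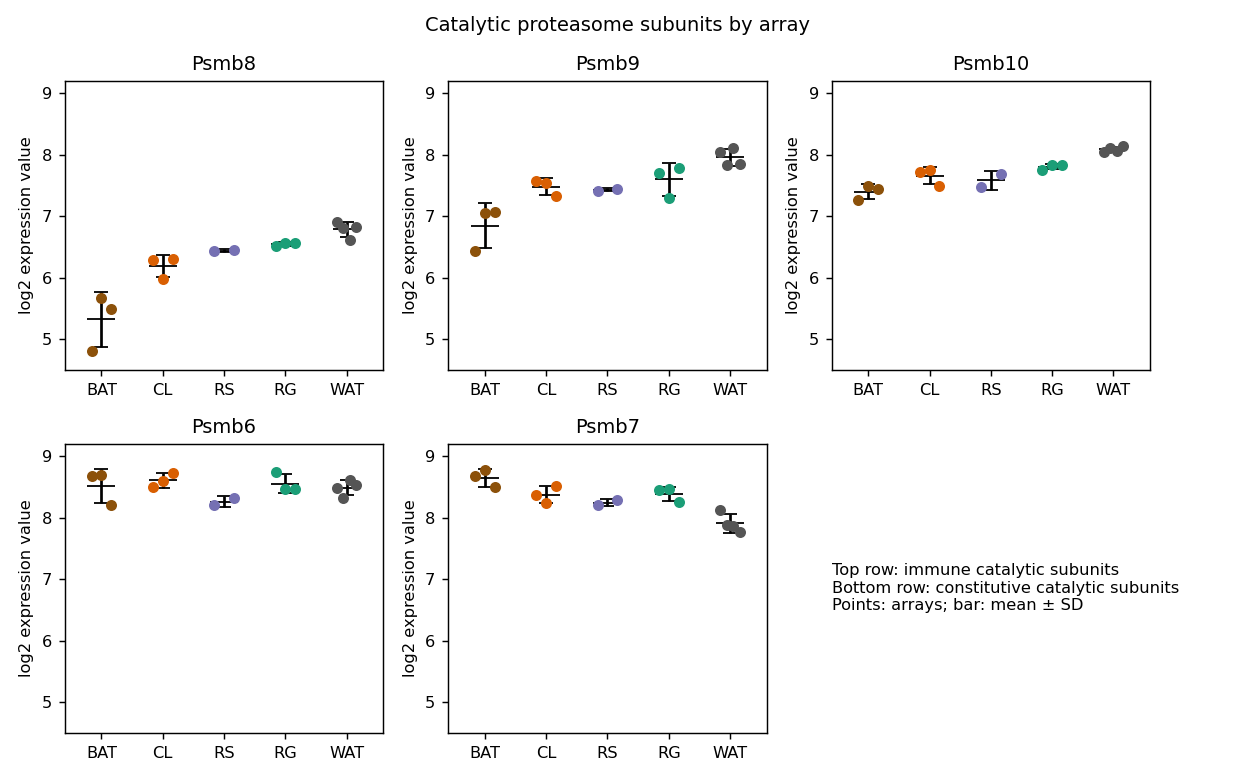
Log2 expression values (vertical axis, the same range in every panel) of the immune catalytic subunits Psmb8, Psmb9 and Psmb10 and the constitutive ones Psmb6 and Psmb7 in 5 groups. Points are arrays and bars are mean ± SD. Psmb8 averages 5.33 in BAT and 6.79 in WAT, while Psmb7 averages 8.65 in BAT and 7.91 in WAT.

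Within each array, the immune subunit was then set against the constitutive subunit whose place it takes, as a log2 difference relative to the WAT mean. Psmb10 minus Psmb7 averaged -1.43 ± 0.189 in BAT, -0.90 ± 0.271 in CL, -0.84 ± 0.0919 in RS and -0.77 ± 0.134 in RG, against 0 ± 0.197 in WAT (SD). Its 4 WAT arrays lay between -0.27 and 0.20 and its 11 other arrays between -1.59 and -0.61, so they did not overlap. Psmb9 minus Psmb6 averaged -1.14 ± 0.556 in BAT, -0.60 ± 0.251 in CL, -0.30 ± 0.0636 in RS and -0.43 ± 0.254 in RG, against 0 ± 0.106 in WAT. For this pair 1 RG array (-0.15) was level with the lowest WAT array (-0.15). These differences show unequal change within an array and carry no test.

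**Figure D2:**
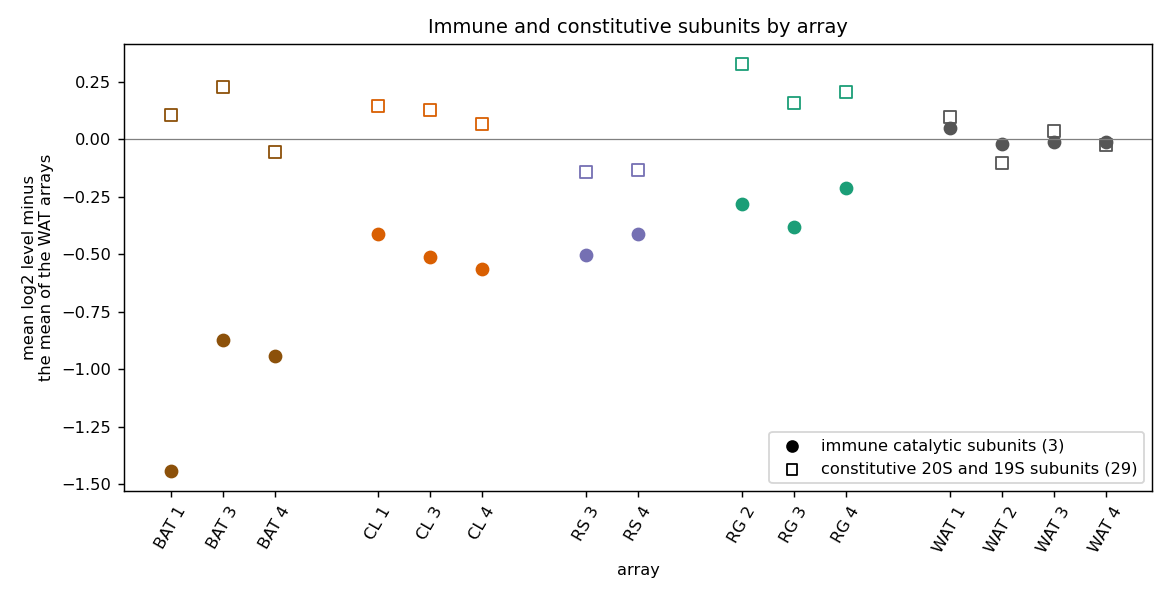
Mean log2 level of the 3 immune catalytic subunits (filled circles) and of 29 constitutive 20S and 19S subunits (open squares) on each array, minus the mean of the WAT arrays. The immune circles lie below 0 on all 11 BAT, CL, RS and RG arrays, and among those arrays the constitutive squares lie below 0 on both RS arrays and 1 BAT array.

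The body of the proteasome varied less. The 29 constitutive subunits of the 20S core and 19S cap leave out the 3 immune subunits, the testis subunit Psma8 and the thymus subunit Psmb11. Their BAT minus WAT differences ran from -0.52 to 0.74, and 25 of 29 lay within 0.5 log2 units of 0. Only Psmb7 and Psmd4 of the 29 passed the test, both higher in BAT. Their mean level was 7.29, 7.41 and 7.13 on the BAT arrays, against 7.28, 7.08, 7.22 and 7.16 on the WAT arrays, so the groups overlapped.

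Alpha subunits form the outer rings of the core. Psma1 to Psma8 had no gene past the test in BAT against WAT. Psma3 had the most positive BAT minus WAT difference among them, with 5.68, 6.22 and 6.16 in BAT, 6.0, 5.81 and 5.28 in CL, 5.55 and 4.81 in RS, 5.73, 5.15 and 5.14 in RG, and 5.41, 5.21, 5.43 and 5.83 in WAT. That difference, 0.55 ± 0.239, did not pass (adjusted p = 0.0733), and BAT and WAT overlapped. Psma2 had the most negative, with 6.41, 6.37 and 5.69 in BAT, 6.43, 6.41 and 6.31 in CL, 6.13 and 6.09 in RS, 6.49, 6.43 and 6.30 in RG, and 6.41, 6.37, 6.25 and 6.59 in WAT. One BAT array was low while the others overlapped WAT (-0.25 ± 0.171, adjusted p = 0.246).

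The probe set of Psma5, a subunit of every core, stayed below the array median on 14 of 15 arrays (1.87 to 3.62), and those of Psma8 and Psmb11 on all 15. Brightness differs between probe sets, so this is no measure of abundance, but it leaves little room to see a decrease in these 3 genes.

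The 19S cap has a base of AAA ATPases, Psmc1 to Psmc6, which unfold substrates. None of the 6 passed the test in any of the 4 comparisons with WAT. Psmc2 had the most positive BAT minus WAT difference among them, with 7.23, 7.36 and 7.04 in BAT, 7.27, 7.13 and 6.98 in CL, 6.99 and 7.03 in RS, 7.27, 7.15 and 7.15 in RG, and 7.04, 6.94, 7.05 and 6.97 in WAT (0.21 ± 0.133, adjusted p = 0.208). Psmc1 had the most negative, with 6.96, 7.35 and 7.19 in BAT, 7.51, 7.38 and 7.35 in CL, 6.78 and 7.56 in RS, 7.87, 7.70 and 7.57 in RG, and 7.64, 7.20, 7.75 and 6.99 in WAT (-0.23 ± 0.212, adjusted p = 0.393). For both genes BAT and WAT overlapped.

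Among the 11 non-ATPase subunits, which include the lid and the ubiquitin receptors, only Psmd4 passed. Psmd4 binds polyubiquitin chains, and it read 6.31, 6.43 and 6.43 in BAT, 6.42, 6.69 and 6.06 in CL, 5.69 and 6.30 in RS, 6.63, 6.39 and 6.29 in RG, and 6.10, 5.63, 6.03 and 5.70 in WAT. BAT lay above WAT on every array (0.52 ± 0.192, 1.44-fold, adjusted p = 0.0377), while CL and RS overlapped WAT. This call was lost after array median centring, under the replicate block and without WAT 2, WAT 4 or any 1 BAT array, with adjusted p up to 0.111. The lid subunit Psmd6 had the most negative difference of the 11, with 6.61, 6.84 and 5.56 in BAT, 6.76, 6.94 and 7.03 in CL, 6.55 and 6.72 in RS, 7.06, 6.76 and 7.09 in RG, and 6.93, 6.80, 6.71 and 6.98 in WAT. The BAT array at 5.56 was low, while the others lay within or near the WAT range (-0.52 ± 0.234, adjusted p = 0.0836). The deubiquitinase Psmd14, which strips ubiquitin from substrates, differed by 0.21 ± 0.17 in BAT (adjusted p = 0.335).

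**Figure D3:**
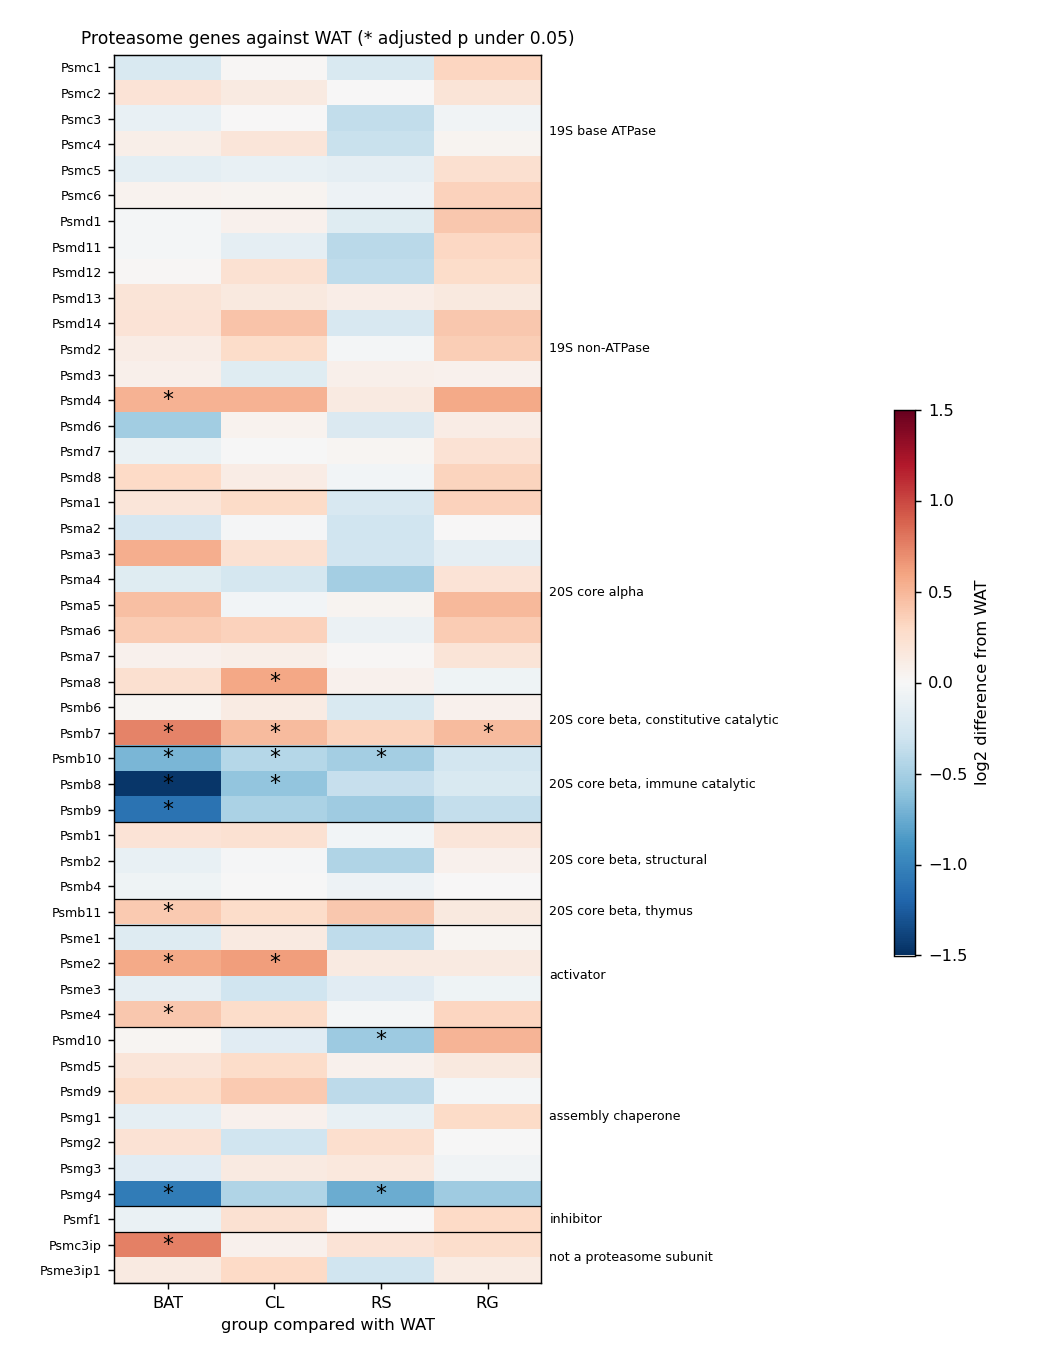
Log2 difference from WAT (colour, red higher and blue lower, scale from -1.5 to 1.5) of all 48 genes, grouped by role, in BAT, CL, RS and RG. Asterisks mark an adjusted p under 0.05. The 3 immune subunits are blue in all 4 columns, and Psmb7 is red in all 4.

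The activators divided. Psme1 and Psme2 build the interferon-inducible PA28 ring together and lie near each other on chromosome 14, with Emc9 between them. Psme2 read 6.11, 6.15 and 6.42 in BAT, 6.16, 6.32 and 6.38 in CL, 5.88 and 5.70 in RS, 5.90, 5.60 and 5.89 in RG, and 5.92, 5.56, 5.70 and 5.44 in WAT. Its BAT and CL arrays all lay above every RS, RG and WAT array, and it was 1.49-fold higher in BAT than in WAT (0.57 ± 0.156, adjusted p = 0.00883). Psme1 read 7.50, 7.98 and 7.70 in BAT, 8.06, 8.12 and 7.96 in CL, 7.28 and 7.79 in RS, 8.14, 7.78 and 7.93 in RG, and 8.05, 7.75, 8.08 and 7.78 in WAT. BAT and WAT overlapped for Psme1 (-0.19 ± 0.171, adjusted p = 0.382), so its ring partner's increase had no counterpart that passed the test.

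Psme4 encodes PA200, a nuclear activator. It read 6.63, 6.80 and 6.58 in BAT, 6.54, 6.50 and 6.58 in CL, 6.49 and 5.99 in RS, 6.58, 6.56 and 6.63 in RG, and 6.41, 6.26, 6.16 and 6.25 in WAT. BAT lay above WAT without overlap (0.40 ± 0.143, 1.32-fold, adjusted p = 0.0344), a call lost after array median centring, under the replicate block, with only the BAT and WAT arrays in the fit, and without WAT 2, WAT 3, WAT 4, BAT 1 or BAT 3 (adjusted p up to 0.124 over the alternatives). Psme3, the nuclear homolog of PA28, read 7.18, 7.72 and 7.41 in BAT, 7.48, 7.11 and 7.26 in CL, 7.09 and 7.73 in RS, 7.49, 7.65 and 7.40 in RG, and 7.53, 7.46, 7.60 and 7.73 in WAT (-0.14 ± 0.179 in BAT, adjusted p = 0.532). The inhibitor Psmf1, or PI31, read 4.61, 4.79 and 3.63 in BAT, 4.75, 4.37 and 4.90 in CL, 4.09 and 4.83 in RS, 4.80, 4.66 and 4.78 in RG, and 4.23, 4.31, 4.69 and 4.55 in WAT (-0.10 ± 0.254 in BAT, adjusted p = 0.764). Both overlapped between BAT and WAT.

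Of the 7 assembly chaperones, which bring core and cap together but leave the finished particle, only Psmg4 passed the test in BAT. Psmg4 helps to build the alpha ring. It read 3.40, 3.65 and 3.87 in BAT, 4.38, 4.31 and 4.02 in CL, 3.80 and 4.11 in RS, 4.37, 4.29 and 3.83 in RG, and 4.57, 4.43, 4.96 and 4.80 in WAT. All WAT arrays were above all others, and Psmg4 was 2.07-fold lower in BAT than in WAT (-1.05 ± 0.187, adjusted p = 0.000648). Psmd9, a chaperone of the ATPase ring, had the most positive difference of the chaperones, with 5.02, 5.19 and 4.79 in BAT, 5.20, 5.08 and 5.05 in CL, 4.10 and 4.55 in RS, 4.80, 4.49 and 4.77 in RG, and 4.57, 4.55, 5.03 and 4.71 in WAT. BAT and WAT overlapped for Psmd9 (0.28 ± 0.169, adjusted p = 0.18).

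Among the dim genes, the thymus subunit Psmb11 read 2.76, 2.67 and 2.80 in BAT, 2.46, 2.63 and 2.76 in CL, 2.68 and 2.82 in RS, 2.46, 2.57 and 2.46 in RG, and 2.34, 2.47, 2.38 and 2.21 in WAT. Its difference in BAT was 0.39 ± 0.132 (adjusted p = 0.0256), and it was not called after quantile normalization (adjusted p = 0.972) or centring, under the replicate block, with only the BAT and WAT arrays, or without WAT 1, WAT 4, BAT 1 or BAT 4. Psmc3ip, a recombination cofactor and not a subunit, read 4.01, 3.70 and 3.78 in BAT, 2.96, 3.19 and 3.24 in CL, 3.36 and 3.18 in RS, 3.24, 3.28 and 3.46 in RG, and 3.10, 3.18, 3.01 and 2.99 in WAT. The BAT arrays were above all others (0.76 ± 0.14 against WAT, adjusted p = 0.000802). Psme3ip1, which binds Psme3, differed by 0.14 and did not pass.

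The calls of Psmb7, Psmb8, Psmb9, Psmb10, Psme2 and Psmg4 in BAT against WAT were kept under all 22 alternative settings. How many proteasome genes were higher depended on scaling: 12 were higher and 4 lower after quantile normalization (all probe sets 13.1% and 11.6%), and 3 higher and 4 lower after array median centring (20.6% and 19.4%). The median of all probe sets was 0.18 as deposited and 0.03 after quantile normalization, and the members' median was 0.06 and 0.22, so their place relative to all genes turned with the scaling.

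After CL316243, the immune subunits Psmb8 and Psmb10 were lower than in white adipocytes, and Psmb7 and Psme2 were higher. In CL against WAT, 3 of 48 genes were higher (6.25%), against 15.2% of all probe sets, and 2 were lower (4.17%), against 9.97% of all. The 2 lower were Psmb8 (-0.59 ± 0.182, 1.51-fold lower, adjusted p = 0.0282) and Psmb10 (-0.43 ± 0.131, adjusted p = 0.0274). Psmb9 differed by -0.48 ± 0.179 and did not pass (adjusted p = 0.0626). For all 3 immune subunits the CL arrays lay below every WAT array, but CL and WAT did not overlap for 16 of the 48 genes. How often this held over all probe sets was not computed. Psme2 was higher (0.63 ± 0.156, 1.55-fold, adjusted p = 0.0099), as was Psmb7 (0.47 ± 0.143, adjusted p = 0.0277).

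The third higher gene in CL was Psma8, the alpha subunit of testis proteasomes. It read 2.70, 2.45 and 2.56 in BAT, 2.73, 2.99 and 3.01 in CL, 2.41 and 2.38 in RS, 2.24, 2.42 and 2.14 in RG, and 2.36, 2.35, 2.19 and 2.43 in WAT, so every CL array was above every WAT array (0.58 ± 0.138, adjusted p = 0.00873). Its probe set is dim, and the call was lost after quantile normalization and under the replicate block (adjusted p up to 0.141 over the alternatives). The Psmb8 call was lost without WAT 1, WAT 2, WAT 4 or any 1 CL array, that of Psmb10 without WAT 2, WAT 4, CL 1 or CL 4, and that of Psmb7 after array median centring or without WAT 2, WAT 3, WAT 4, CL 1 or CL 4. Under the replicate block no proteasome gene was called in CL, against 4.9% of all probe sets higher and 4.86% lower. After quantile normalization, 7 genes were higher and 0 lower (all probe sets 6.36% and 6.14%), where the members' median was 0.21 against 0.02 for all probe sets, compared with 0.10 and 0.13 as deposited. After centring, 2 were higher and 3 lower (11.5% and 11.2%). With only probe sets averaging above 4, 2 of 43 members were higher and 2 lower, against 8.68% and 19.9% of all.

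After roscovitine no proteasome gene was higher than in WAT, and most constitutive subunits lay below the white level without passing the test. In RS against WAT, 0 of 48 were higher by limma, against 11.1% of all probe sets (1 at an unadjusted p under 0.05), and 3 were lower (6.25%), against 10.3% of all. The 3 were Psmb10 (-0.51 ± 0.149, 1.42-fold lower, adjusted p = 0.0271), Psmg4 (-0.74 ± 0.212, 1.66-fold lower, adjusted p = 0.0247) and Psmd10 (-0.54 ± 0.187, adjusted p 0.05 when rounded and just under the threshold). Psmb8 and Psmb9 differed by -0.34 ± 0.206 and -0.53 ± 0.203 and did not pass (adjusted p = 0.233 and 0.0743), with every RS array below every WAT array. RS and WAT did not overlap for 14 of the 48 genes. Of the 29 constitutive subunits, 21 lay below 0, with a median of -0.14, against 0.13 for all probe sets, and none passed. This position depended on scaling and on the probe sets compared. The median over all 48 genes was -0.12, against 0.13 for all probe sets, as deposited. It was 0.04, against 0.04, after quantile normalization. With only probe sets averaging above 4, it was -0.18 for 43 members, against -0.22 for all. There 0 members were higher and 3 lower, against 3.78% and 21.7% of all.

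Psmd10, or gankyrin, helps to assemble the ATPase base. It read 5.86, 6.25 and 5.85 in BAT, 5.85, 5.80 and 5.71 in CL, 5.64 and 5.19 in RS, 6.59, 6.34 and 6.46 in RG, and 5.96, 5.72, 6.20 and 5.95 in WAT. The 2 RS arrays were the lowest of all 15 and the 3 RG arrays the highest. The calls of Psmb10 and Psmg4 in RS were lost without WAT 4 or RS 3, that of Psmb10 also without WAT 2 and that of Psmg4 without WAT 3, and that of Psmd10 under 16 of 22 alternatives (adjusted p up to 0.494). With both WAT 4 and RS 3 left out, no proteasome gene was called in RS, and after quantile normalization none was either.

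After rosiglitazone no immune subunit passed the test, and Psmb7 was the only proteasome gene that did. In RG against WAT, 1 of 48 genes was higher (2.08%), against 5.19% of all probe sets, and 0 were lower by limma, against 6.24% (2 at an unadjusted p under 0.05). Psmb7 was higher (0.48 ± 0.143, 1.40-fold, adjusted p = 0.0406). Psmb8, Psmb9 and Psmb10 differed by -0.23 ± 0.182, -0.36 ± 0.179 and -0.28 ± 0.131 (adjusted p = 0.417, 0.201 and 0.17), with RG below WAT on every array of each. RG and WAT did not overlap for 16 of the 48 genes. Of the 29 constitutive subunits, 25 lay above 0, with a median of 0.22, against 0.10 for all probe sets. The Psmb7 call was lost under the replicate block and without WAT 2, WAT 3, WAT 4, CL 1 or any 1 RG array. After quantile normalization, 4 genes were higher and 0 lower (all probe sets 3.84% and 4.2%). With only probe sets averaging above 4, 3 of 43 members were higher and 0 lower, against 9.17% and 13.6% of all. The medians there were 0.18 for the members and -0.04 for all.

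The comparisons with BAT ask how the treated inguinal cells differ from brown cells, and the higher calls fell on the immune subunits Psmb8 and Psmb9. In RG against BAT, 2 of 48 genes were higher (4.17%), against 5.85% of all probe sets, and 1 was lower (2.08%), against 8.42%. Psmb8 was 2.34-fold higher in RG (1.23 ± 0.194, adjusted p = 0.00173), a call kept under all 22 alternatives. Psmb9 was higher by 0.75 ± 0.192 (adjusted p = 0.0197), and its call was lost after quantile normalization, under the replicate block, with only the RG and BAT arrays, or without BAT 1, RG 2 or RG 4. The lower gene was Psmc3ip (-0.50, a call lost under 11 of 21 alternatives). With only probe sets averaging above 4, 2 of 43 members were higher and 0 lower, against 12.4% and 2.99% of all.

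In RS against BAT, Psmb8 alone was higher (1.12 ± 0.217, 2.17-fold, adjusted p = 0.0132), or 2.08% of the members against 1.33% of all probe sets. None was lower by limma, against 2.34% of all (13 at an unadjusted p under 0.05). In CL against BAT, Psmb8 was likewise the only higher gene (0.87 ± 0.194, adjusted p = 0.0342), again 2.08% against 0.635% of all, and Psmc3ip the only lower one (-0.70), 2.08% against 1.42%. The RS call was lost under the replicate block, with only the RS and BAT arrays, and without RS 3. The CL call was lost under the replicate block, with only the CL and BAT arrays, after quantile normalization, with only probe sets averaging above 4, and without WAT 2, BAT 1, BAT 4, RG 2 or any 1 CL array. Of all 25206 probe sets, the replicate block called 72 in RS against BAT and 7 in CL against BAT. With only the arrays of the groups compared, 60 and 41 were called. These 3 comparisons share the BAT arrays, among which BAT 1 had the lowest Psmb8 (4.82).

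Among the treatments, CL, RS and RG were hardly separated by single proteasome genes. In RS against CL, 0 of 48 were higher and 0 lower by limma, against 0.476% and 0.797% of all probe sets (0 and 11 at an unadjusted p under 0.05). In RS against RG, 0 were higher and 1 was lower (2.08%), against 0.345% and 0.337% of all. The gene was Psmd10 (-1.05 ± 0.197, 2.07-fold lower in RS, adjusted p = 0.0336), a call lost without WAT 2 or any 1 RG array, after quantile normalization, under the replicate block and with only the RS and RG arrays. The replicate block and the fit of only the RS and RG arrays each called 0 of all 25206 probe sets. In CL against RG, 1 was higher (2.08%) and 0 lower, against 1.65% and 1.22% of all (3 lower at an unadjusted p under 0.05). That gene was the dim Psma8 (0.64, adjusted p = 0.0343), called under 10 of 21 alternatives.

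As a group, the 29 constitutive subunits nonetheless lay lower in RS than in RG. Their mean level was 7.04 and 7.05 on the RS arrays, against 7.51, 7.34 and 7.39 on the RG arrays and 7.33, 7.31 and 7.25 on the CL arrays. The RS values lay below every RG and CL array. The RS minus RG difference was below 0 for 28 of the 29, with a median of -0.38, and that of RS minus CL for 26, with a median of -0.27. Examples from the lid that did not pass alone were Psmd12 (-0.65 ± 0.188, adjusted p = 0.0982) and Psmd14 (-0.65 ± 0.203, adjusted p = 0.115). The median over all 48 genes was -0.31 in RS minus RG, against 0.01 for all probe sets, and -0.15 after quantile normalization. With only probe sets averaging above 4, the RS minus RG median was -0.34 for 43 members and -0.19 for all. The RS minus CL medians were then -0.27 and -0.1. The genes share the same arrays, RS has 2, and no test is given for the group.

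**Figure D4:**
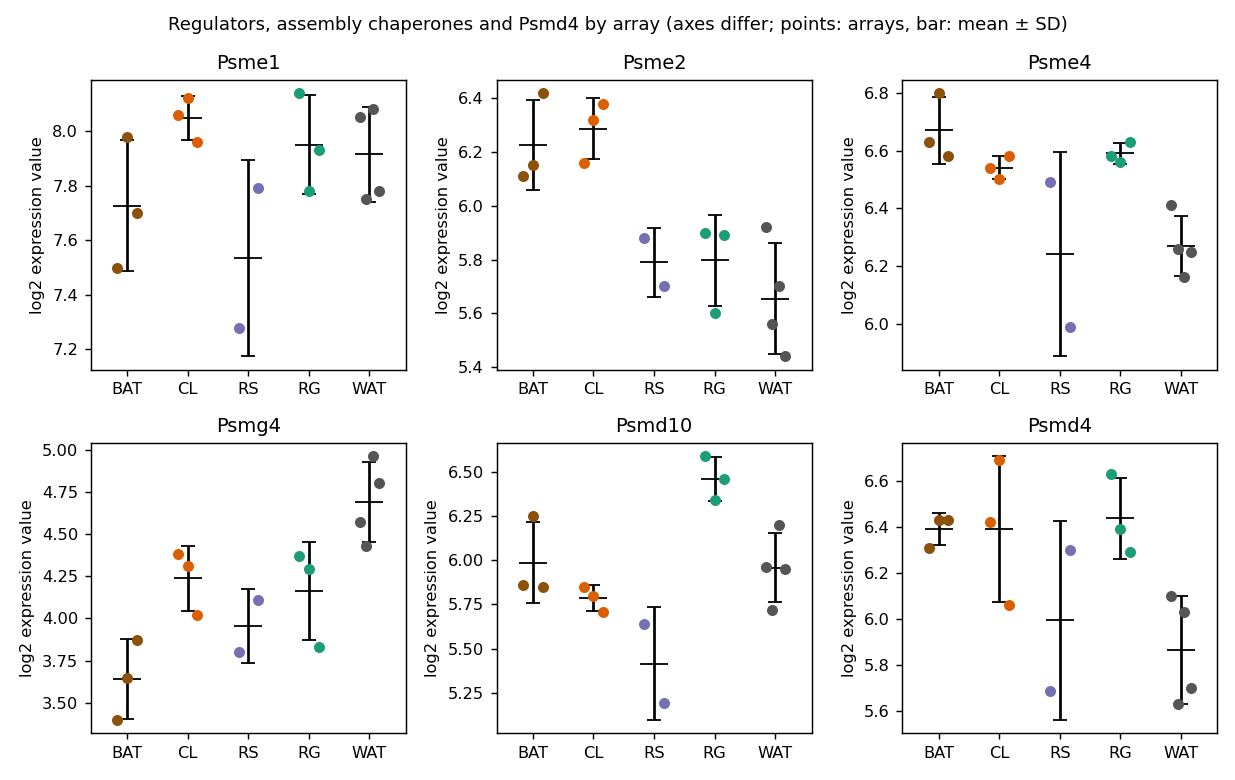
Log2 expression values of the activators Psme1, Psme2 and Psme4, the chaperones Psmg4 and Psmd10 and the ubiquitin receptor Psmd4 in 5 groups, with a separate vertical range per panel. Points are arrays and bars are mean ± SD. Psme2 averages 6.23 in BAT, 6.29 in CL and 5.66 in WAT, and Psmd10 averages 5.42 in RS and 6.46 in RG.

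Genes that act with the proteasome but have no Psm symbol were counted from lists of accessory, ubiquitin and antigen presentation genes. Of 21 accessory and regulator genes, 2 were higher and 4 lower in BAT than in WAT (median -0.11), 1 and 3 in CL, 0 and 4 in RS, and 1 and 1 in RG. Of all probe sets, 27.6% were higher and 16.4% lower in BAT, 15.2% and 9.97% in CL, 11.1% and 10.3% in RS, and 5.19% and 6.24% in RG, so the count lower in BAT lay near the share of all genes. Of probe sets averaging above 4, 11.6% were higher and 33.8% lower in BAT. After quantile normalization, 4 of the 21 genes were higher and 3 lower in BAT, and 1 higher and 0 lower in RS. Nfe2l1 was higher in BAT (0.42 ± 0.149, 1.34-fold, adjusted p = 0.0333), a call lost under 9 of 22 alternatives, array median centring among them. Its relative Nfe2l2, the antioxidant regulator, was lower in BAT (-1.24 ± 0.182, adjusted p = 0.000176), in CL (-1.32), in RS (-0.71) and in RG (-0.66). The RS and RG calls of Nfe2l2 were lost after quantile normalization. Pomp, the chaperone that matures the core and favours the immune form, was lower in BAT (-0.84 ± 0.159, 1.79-fold, adjusted p = 0.000998) and in RS (-0.53, adjusted p = 0.048), where the call was lost under 16 of 22 alternatives. The ubiquitin-binding genes Zfand5 (-0.58) and Ubqln2 (-0.62) were also lower in BAT, the call of Ubqln2 being lost after quantile normalization (adjusted p = 0.284).

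Of 11 ubiquitin genes and first enzymes, Uba6, a ubiquitin-activating enzyme, was the only one past the test in BAT (-0.78 ± 0.151, adjusted p = 0.00112). It was lower in CL (-0.62), RS (-0.51) and RG (-0.49) too, but these 3 calls were lost after quantile normalization (adjusted p = 0.0611, 0.246 and 0.236). Of the 11 genes, 1 was lower in BAT, 1 in CL, 2 in RS and 2 in RG. The shares of all probe sets were 16.4%, 9.97%, 10.3% and 6.24%. Besides Uba6, the lower genes were Ube2d3 in RS and Ube2n in RG, and both calls were lost under the replicate block. The main activating enzyme Uba1 differed by -0.32 ± 0.14 in BAT and did not pass (adjusted p = 0.0749).

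Most genes listed for peptide presentation by MHC class I also lay lower in BAT. Of 15 MHC class I and peptide loading genes, 11 were lower and 0 higher (median -0.57), where 16.4% of all probe sets were lower and their median was 0.18. The same list had 4 lower in CL, 1 in RS and 0 in RG. After quantile normalization, 5 were lower in BAT (median -0.54), 2 in CL, 0 in RS and 0 in RG, where 11.6%, 6.14%, 5.17% and 4.2% of all probe sets were lower. In the deposited values, 33.8% of probe sets averaging above 4 were lower in BAT (median -0.26). That share was 19.9% in CL, 21.7% in RS and 13.6% in RG. The mean level of the list was 6.83, 6.93 and 6.82 on the BAT arrays, 7.09, 6.99 and 7.07 on the CL arrays, 7.82 and 7.01 on the RS arrays, and 7.37, 7.30 and 7.40 on the RG arrays, against 7.55, 7.50, 7.45 and 7.79 on the WAT arrays. The RS arrays stood apart from each other, with RS 3 the highest of all 15 and RS 4 within the CL range. The peptide transporter Tap1, which lies between Psmb9 and Psmb8, was lower in BAT (-0.76 ± 0.242, adjusted p = 0.0204) and CL (-0.79), and both calls were lost after quantile normalization (adjusted p = 0.101 and 0.0716). Its partner Tap2 differed by -0.48 ± 0.279 in BAT and did not pass (adjusted p = 0.17). The light chain B2m was lower in BAT (-0.62 ± 0.13, adjusted p = 0.00183), as were H2-D1 (-0.57), H2-Q7 (-1.67) and H2-T23 (-1.44). Of 25 interferon response genes, 20 were lower in BAT (median -0.92), 16 in CL, 6 in RS and 6 in RG, with 1 higher in RG. After quantile normalization, 10 were lower in BAT (median -0.82), 10 in CL, 3 in RS and 5 in RG, and without both WAT 4 and RS 3, 1 was lower in RS. Examples in BAT were Irf7 (-2.29), Irf8 (-1.53), Oas2 (-2.01) and Gbp2 (-1.45). Against BAT, 10 of 25 interferon genes and 5 of 15 MHC genes were higher in RG, 3 of 25 and 1 of 15 in RS, and 0 of 25 and 1 of 15 in CL. Of all probe sets, 5.85% were higher in RG, 1.33% in RS and 0.635% in CL. Of those averaging above 4, the shares were 12.4%, 2.69% and 0.526%. In RG these counts were 7 of 25 and 1 of 15 after quantile normalization (3.86% of all), and 1 of 25 and 0 of 15 under the replicate block (0.611% of all). The RS calls (H2-Q7, Irf8, Gbp2 and Cxcl10) were all lost under the replicate block and with only the RS and BAT arrays. The CL call, H2-Q7, was lost under 10 of 22 alternatives.

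Macrophages hold immune proteasomes, and the mean level of 12 macrophage markers was 4.82 to 5.21 on the BAT arrays, 4.95 to 5.74 in CL, 4.40 to 5.02 in RS and 4.90 to 5.91 in RG, against 7.11 to 8.21 in WAT. The part of these cells in the WAT values of Psmb8, Psmb9 and Psmb10 was not tested. Of 10 T and B cell markers, 0 were called in BAT and RS, 2 were higher in CL and 1 in RG. Of 9 endothelial markers, 0 were called in BAT and CL, 5 were lower in RS and 1 in RG, and of 9 general adipocyte markers 3, 2, 4 and 6 were higher in BAT, CL, RS and RG.

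**Figure D5:**
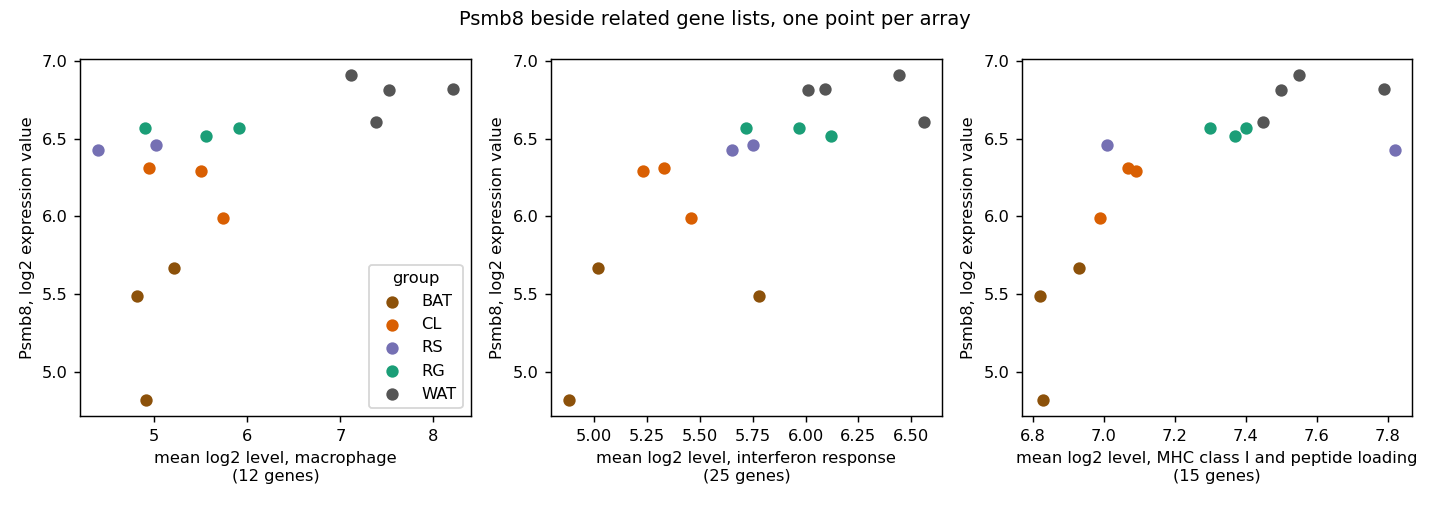
Psmb8 (vertical axis, log2 expression value) beside the mean log2 level of 12 macrophage markers, 25 interferon response genes and 15 MHC class I genes (horizontal axes), 1 point per array. Psmb8 runs from 4.82 to 6.57 and the macrophage mean from 4.40 to 5.91 on the 11 BAT, CL, RS and RG arrays, against 6.61 to 6.91 and 7.11 to 8.21 on the WAT arrays.

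Over all 10 comparisons, 36 of the 48 proteasome genes were called in none and 12 in at least 1 (25%), against 57.3% of all probe sets. The 57.3% includes the dim probe sets, and no such share was computed without them. Among the genes called against WAT, Psmb7 passed in BAT, CL and RG, Psmb10 passed in BAT, CL and RS, and Psmb8, Psme2 and Psmg4 passed in 2 of the 4 groups. The 4 comparisons share the WAT arrays.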

How the data were processed

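Log2 expression values were deposited by the authors, 1 per probe set and array, for 15 arrays labelled from 2 ng of total RNA. RMA, Affymetrix Expression Console and affy 1.36.1 appear in the submitters' processing notes with neither order nor settings, and a genome build is not given in the sources used here. Probe-set identifiers hold Entrez numbers, and 23740 of 25206 matched a RefSeq symbol (GRCm38.p6).

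All 25206 probe sets were fitted with limma 3.58.1 (R 4.3.3) by lmFit, contrasts.fit and eBayes, using 1 mean for each group (10 residual degrees of freedom). In each of 10 comparisons, two-sided p-values were adjusted by Benjamini-Hochberg across the whole table, and a gene was called at an adjusted p under 0.05. RS has 2 arrays and is assumed to vary like the other groups. Arrays carry no read depth, and their number limits the precision.

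Members and lists were chosen with earlier results of these data known. Values in every array are given for catalytic subunits, activators, the inhibitor, the members with the most positive and most negative BAT minus WAT difference in each class, and called members. Alternatives were quantile normalization, median centring, a mean over all arrays above 4, a replicate block, trend and robust eBayes, only the arrays of the 2 groups, and leaving out arrays. The fit was tested on simulated data. Promoters came from RefSeq.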

Additional observations from a re-analysis of the deposited data

Results flagged for a closer look

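Psmd10 differed between the roscovitine and the rosiglitazone cells, which share WAT as their control, by a limma test of that difference (RS minus RG -1.05 on the log2 scale). Psma8 differed likewise between the CL316243 and the rosiglitazone cells (CL minus RG 0.64), on a dim probe set. None of the 48 genes had a WAT array that stood far from the other 3 by Dixon's test at its critical value for 4 arrays. The smaller groups were not tested. Cell type markers, in which WAT 4 differed from the other WAT arrays, were not part of this test.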

How the results depend on the processing

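No gene's called difference turned its sign under any of 22 alternatives. In BAT against WAT the calls of Psmb7, Psmb8, Psmb9, Psmb10, Psme2 and Psmg4 were kept under all 22, as was that of Psmb8 in RG against BAT. After quantile normalization, the members called higher and lower were 12 and 4 in BAT against WAT, 7 and 0 in CL, 0 and 0 in RS, and 4 and 0 in RG. They were 0 and 1 in CL against BAT, 1 and 1 in RS against BAT, 1 and 2 in RG against BAT, 0 and 0 in RS against RG, and 0 and 0 in CL against RG. The shares of all probe sets in these comparisons were 1.2% and 1.63%, 2.03% and 2.42%, 3.86% and 4.16%, 0.0873% and 0.0873%, and 0.869% and 0.885%. After array median centring the members called higher and lower were 3 and 4 in BAT against WAT, 4 and 0 in RG against BAT, and 1 and 1 in CL against RG. Of all probe sets the shares were 20.6% and 19.4%, 7.99% and 5.49%, and 1.19% and 1.53%. With only probe sets whose mean over all arrays was above 4 (43 members), 3 were higher in RG against WAT. With that filter none were called in CL against BAT, none were lower in RG against BAT, and 0 were higher in CL against RG. Of the 9690 probe sets kept, 75 were called in CL against BAT, 2.99% were lower in RG against BAT and 0.918% were higher in CL against RG. With only the arrays of the 2 groups, 0 were lower in RS against WAT, against 7.07% of all probe sets. In CL against BAT, RS against BAT, RS against RG and CL against RG, 0 members were called. Of all 25206 probe sets, 41, 60, 0 and 607 were called there, in the same order. In RG against BAT, 1 member was higher and 0 lower, against 5.19% and 5.99% of all. Trend and robust eBayes moved no count by over 1.5 times. Without both WAT 4 and RS 3, 0 were lower in CL and in RS against WAT, 0 higher in RG against WAT and in RS against BAT, and 1 lower in CL against RG.

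Same-numbered arrays of different groups correlated between -0.881 and -0.0498 over 24 pairs once group means were removed. For 0 of 15 arrays did the highest correlation fall on the same number, so no pairing by number was seen. This check cannot exclude a pairing, since the groups hold 2 to 4 arrays and the 2 RS arrays deviate from their mean by opposite amounts. With the replicate block (7 residual degrees of freedom), 3 members were higher and 4 lower in BAT against WAT, against 17.1% and 11.8% of all probe sets. In RG against BAT 1 was higher and 0 lower, against 0.611% and 0.766%. No member was called in each of the other 8 comparisons. In some of these the block called few probe sets of any kind: 0 of 25206 in RS against RG, 1 in CL against RG, 7 in CL against BAT and 13 in RS against CL.

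Leaving out 1 array at a time, the counts ran as follows. Higher calls were 4 to 6 in BAT against WAT, 2 to 4 in CL against WAT, 0 to 3 in RG against WAT, 1 to 4 in RG against BAT, and 0 to 1 in CL against BAT, RS against BAT and CL against RG. Lower calls were 4 to 5 in BAT against WAT, 0 to 3 in CL and RS against WAT, and 0 to 1 in CL against BAT, RG against BAT, RS against CL, RS against RG and CL against RG. With groups of 2 to 4 arrays, a gene that misses the threshold is not shown to be unchanged.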
